A study of Mus musculus with 23 samples.

Results

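The genes described here are 39 imprinted genes of the mouse, chosen by their symbols from 55487 rows of a count table and followed through 23 RNA-seq libraries of primary mouse embryonic fibroblasts (MEFs). Of the 39, 37 passed the expression filter, among 15748 genes tested. The exceptions were Phlda2, with at most 3 counts in any library, and Magel2, with at most 6, and neither was tested. MEFs are cultures grown from the minced body of an embryo after the head and organs have been taken away. All were of the inbred FVB/NJ strain, from embryos of heterozygous intercrosses. They carried 1 of 4 genotypes of the glucocorticoid receptor (GR), a steroid-activated transcription factor. GRwt/wt was the unmodified receptor. In GRD/D an alanine of the DNA-binding domain was replaced by threonine, in GRL/L an isoleucine of the ligand-binding domain was replaced by alanine, and GRD+L/D+L combined both changes. The D+L and L alleles came from CRISPR/Cas9 editing of zygotes that already held a D allele, followed by backcrossing, and the D+L line goes back to a single founder pup. Cultures received vehicle or 10 nM dexamethasone (Dex), a synthetic GR ligand, for 5 h. Each group held 3 libraries, 1 per culture, with the exception of GRD/D vehicle, which held 2. Per the series description each of the 3 cultures within a genotype was derived from another mouse.

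An imprinted gene is expressed mainly from the copy inherited from one parent. The choice is laid down as DNA methylation at a control region in the germline and kept through later divisions, in part by the zinc finger protein ZFP57, which binds methylated copies of the hexamer TGCCGC. Imprinted genes lie in clusters, in which a noncoding RNA and protein-coding genes are often active on opposite parental copies. Many act on fetal growth. IGF2, a growth factor made from the paternal copy, is cleared by the receptor IGF2R, made from the maternal copy, and GRB10 and CDKN1C restrain growth signalling and the cell cycle. In an inbred strain the parental copies have the same sequence, so the counts give the sum over both copies and bear on neither alone.

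Depth was similar throughout, with 16.5 M to 23.1 M counts per library, and values are given as CPM, read counts per library size after TMM scaling. The 10 fibroblast markers summed to 40488 to 64971 CPM in every library. Other cell types were present at lower and uneven levels. The 10 macrophage markers summed to 4858 CPM in GRwt/wt vehicle replicate 3, to 17.3 to 99.0 in the other GRwt/wt libraries, to 7.87 to 81.9 in GRD+L/D+L, to 265 to 1678 in GRD/D and to 300.4 to 744 in GRL/L. Cartilage markers reached 245 and 296 CPM in the vehicle and Dex libraries of GRD+L/D+L number 1, against 10.5 to 17.1 in the other GRD+L/D+L vehicle libraries. GRwt/wt vehicle replicate 1 stood apart as a whole, with a highest Spearman correlation with any other library of 0.916, where each other library reached at least 0.973. Epithelial markers summed to at most 5.79 CPM and endothelial markers to at most 20.9 CPM, neural markers to 36.8 to 272 CPM, and skeletal muscle markers to at most 267 CPM, with Myod1 and Myog at no more than 3 counts in any library. Members called against GRwt/wt vehicle are therefore also given without these libraries.

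Levels spanned the whole range of the transcriptome. Per kilobase of exon, and averaged over the 22 libraries other than GRwt/wt vehicle replicate 1, H19, a maternally expressed noncoding RNA, led with 1231 CPM per kb. It was followed by Mest, a hydrolase of mesoderm, with 251, the cyclin-dependent kinase inhibitor Cdkn1c with 204, Grb10 with 167, Igf2r with 134 and Gnas, the stimulatory G protein subunit, with 133 CPM per kb. The lowest of the tested genes were Kcnq1ot1, Usp29 and Rasgrf1, the last at no more than 22 counts in any library. Igf2 itself lay low, at 2.74 CPM per kb, far below its neighbour H19. Overlapping genes limit some of these levels, since the strandedness of counting was not stated. Of the exon bases, 64.5% are shared with another annotated gene for Igf2, 34.1% for Snrpn, 30.7% for Cdkn1c, 27.3% for Ube3a and 23.1% for Mest.

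**Figure D1:**
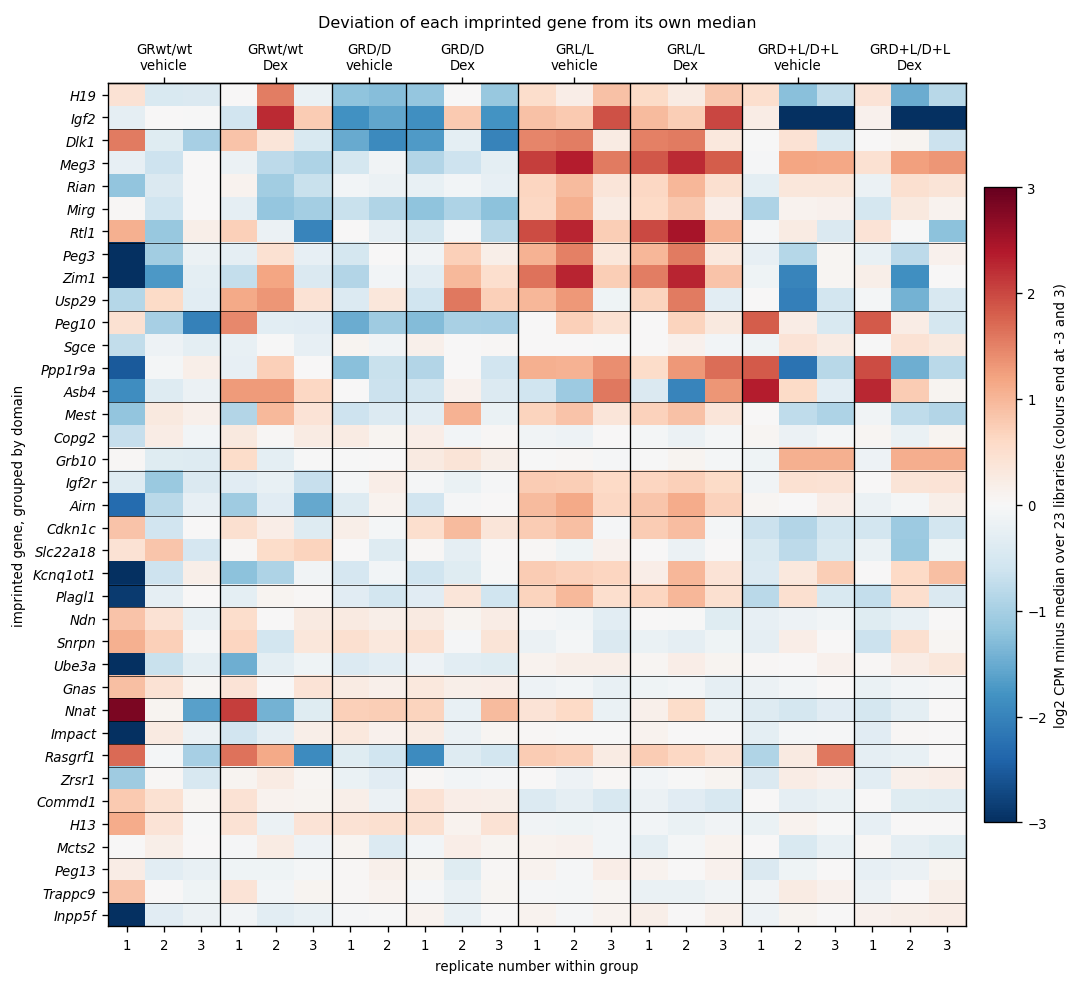
Heat map of the 37 tested imprinted genes (rows) in the 23 libraries (columns, by group), showing log2 CPM minus the median of the gene over libraries, with colours ending at -3 and 3. Igf2, Ppp1r9a, Zim1, Asb4, Nnat and Rasgrf1 vary most among libraries of a group, and the Meg3, Igf2r and Airn rows are high throughout the GRL/L libraries.

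The lowest adjusted p of any member in GRL/L, in vehicle and in Dex, belonged to Meg3, a noncoding RNA of the Dlk1-Meg3 cluster on chromosome 12. Meg3 (chr12:109541001-109571726, plus strand, GRCm38), Rian (chr12:109603940-109661716) and Mirg (chr12:109729764-109749460) are made from the maternal copy and carry microRNAs and small nucleolar RNAs in their span. Dlk1 (chr12:109452823-109463336), a transmembrane protein of the NOTCH ligand family, and Rtl1 (chr12:109589193-109600330, minus strand) are made from the paternal copy. The microRNAs below, from RefSeq on GRCm38.p6, are shown because most lie in Meg3, Rian and Mirg, which were called in GRL/L in at least 1 treatment, while miR-127-3p lies in the neighbouring Rtl1, which was not called. Each is printed 5′ to 3′ with its seed, bases 2 to 8, in capitals, and miR-453 and miR-496a-5p of Mirg share the seed GGUUGCC.
miR-770-5p (Meg3, chr12:109563710-109563731): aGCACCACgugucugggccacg
miR-770-3p (Meg3, chr12:109563744-109563765): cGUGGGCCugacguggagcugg
miR-370-3p (Rian, chr12:109618305-109618326): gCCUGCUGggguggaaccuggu
miR-341-5p (Rian, chr12:109611521-109611541): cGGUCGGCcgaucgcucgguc
miR-134-5p (Mirg, chr12:109734145-109734166): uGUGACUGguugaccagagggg
miR-453 (Mirg, chr12:109735669-109735692): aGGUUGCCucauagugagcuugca
miR-496a-5p (Mirg, chr12:109739132-109739152): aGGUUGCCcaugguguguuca
miR-410-3p (Mirg, chr12:109743764-109743784): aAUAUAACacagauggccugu
miR-127-3p (within Rtl1, opposite strand, chr12:109592888-109592909): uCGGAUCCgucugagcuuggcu

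RefSeq places 3 mature microRNAs of 2 hairpins in Meg3, 6 of 3 hairpins in Rian, 26 of 14 hairpins in Mirg and 13 of 7 hairpins in Rtl1. The hairpin rows themselves held at most 16 counts in any library. Libraries of this kind are not made to capture mature microRNAs, and what follows describes the host transcripts.

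In vehicle, Meg3 was 4.92-fold higher in GRL/L than in GRwt/wt. It measured 305, 235 and 362 CPM in the GRwt/wt libraries and 1529, 1836 and 1067 CPM in the GRL/L libraries, so the lowest GRL/L library lay far above the highest GRwt/wt library. The log2 fold change (LFC) was 2.30 (SE 0.33, adjusted p = 0.000301). In bulk cultures, a change in the share of cells that express a gene and a change in RNA per cell cannot be told apart. Rian measured 243, 409 and 553 CPM in GRwt/wt and 862, 1070 and 708 CPM in GRL/L, an LFC of 1.13 (SE 0.30, adjusted p = 0.0128), with no overlap between the groups. Mirg, with 21.5, 13.9 and 21 against 32.4, 43.8 and 24.8 CPM, did not pass (LFC 0.84, adjusted p = 0.0589). The Dex libraries came from cultures of the same genotypes, and in GRL/L each vehicle library was most like the Dex library of its number, so they are not independent of the vehicle libraries. There Meg3 measured 321, 209 and 190 CPM in GRwt/wt and 1316, 1701 and 1274 CPM in GRL/L (LFC 2.58, SE 0.34, adjusted p = 0.000704). Rian (LFC 1.17, SE 0.30, adjusted p = 0.0324) and Mirg (LFC 1.34, SE 0.32, adjusted p = 0.0205) passed as well, Mirg at 17.4, 9.28 and 10.2 CPM in GRwt/wt and 31.9, 37.2 and 24.2 CPM in GRL/L.

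Neither of the paternally expressed genes of the cluster was called in GRL/L. Dlk1 varied more among the GRwt/wt cultures than between GRwt/wt and GRL/L, at 718, 191 and 124 CPM in GRwt/wt vehicle, against 674, 708 and 293 CPM in the GRL/L vehicle libraries. Rtl1, a retrotransposon-derived protein, measured 4.36, 0.859 and 2.31 CPM in GRwt/wt and 8.11, 10.2 and 3.46 CPM in GRL/L, without passing in vehicle (LFC 1.53, adjusted p = 0.0903) or in Dex (LFC 2.1, adjusted p = 0.0677), although its LFC exceeded that of Rian in both.

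The window around the main RefSeq start of Meg3 (chr12:109540746-109541045, plus strand) is printed here because Meg3 was the member called in most comparisons. It holds 13 CpG dinucleotides and 1 copy of TGCCGC, on the opposite strand, so that it appears as the capitals GCGGCA.
Meg3 promoter: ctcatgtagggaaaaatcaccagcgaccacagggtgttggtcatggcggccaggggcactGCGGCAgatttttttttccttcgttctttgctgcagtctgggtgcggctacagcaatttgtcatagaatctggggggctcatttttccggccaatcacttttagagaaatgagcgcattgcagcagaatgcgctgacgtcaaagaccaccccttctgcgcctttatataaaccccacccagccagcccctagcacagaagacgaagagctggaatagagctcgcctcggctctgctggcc
Promoter windows were found for 31 of the members, 47 windows in all. TGCCGC, searched on both strands, occurred in 12 of the 47 (25.5%), against 11.6% of 32851 windows of all genes, and belonged to Commd1, Copg2, Grb10, Igf2, Mcts2, Meg3, Mest, Nnat, Plagl1, Snrpn and Zim1. The median CpG count was 14 in these windows and 7 in all. A glucocorticoid response element, searched as GNACA and TGTNC with 3 bases between them, occurred in 0 of the 47 windows and in 0.475% of all windows.

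On chromosome 17, Igf2r (chr17:12682406-12769664, minus strand) and Airn (chr17:12741311-12860136, plus strand), the noncoding RNA that runs antisense to it from the paternal copy, were both higher in GRL/L. Igf2r measured 829, 499.9 and 809 CPM in GRwt/wt vehicle, against 1847, 1819 and 1651 CPM in the GRL/L vehicle libraries, and every GRL/L library exceeded every GRwt/wt library. Its LFC was 1.31 (SE 0.19, adjusted p = 0.000338) in vehicle and 1.05 (SE 0.19, adjusted p = 0.00513) in Dex. Airn was far lower, at 1.60, 4.73 and 7.02 CPM in GRwt/wt vehicle, against 16.3, 18.4 and 13 CPM in the GRL/L vehicle libraries, again without overlap. Its LFC was 1.83 (SE 0.38, adjusted p = 0.00286) in vehicle and 1.80 (SE 0.38, adjusted p = 0.0111) in Dex. The annotated exons of the pair share 0 bases, but reads from the introns of Igf2r on the same stretch could be counted for Airn if counting ignored strand, and this was not tested.

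In the Peg3 cluster on chromosome 7, the zinc finger genes Peg3 (chr7:6703892-6730431), made from the paternal copy, and Zim1 (chr7:6671269-6696450), made from the maternal copy, were called in GRL/L vehicle. Peg3 measured 28, 181 and 330.4 CPM in GRwt/wt and 764, 1066 and 476 CPM in GRL/L (LFC 2.09, SE 0.59, adjusted p = 0.0162). Zim1 measured 0.993, 6.23 and 16.9 CPM in GRwt/wt and 65.3, 102 and 34.9 CPM in GRL/L (LFC 3.06, SE 0.83, adjusted p = 0.0141). The groups did not overlap for either gene, but the GRwt/wt values spread widely and the lowest came from the library that stood apart. Without that library the LFC was 1.58 for Peg3 and 2.53 for Zim1, and without GRwt/wt vehicle replicate 3 it was 2.90 and 4.24, all of them called. With the vehicle and Dex libraries of a number summed, Peg3 was called (LFC 1.44, adjusted p = 0.0348) and Zim1 was not (LFC 1.98, adjusted p = 0.0658). In Dex, where GRwt/wt measured 312, 517 and 314 CPM of Peg3 and 12.6, 47.5 and 15.4 CPM of Zim1, neither passed (LFC 1.02, adjusted p = 0.295 for Peg3 and LFC 1.41, adjusted p = 0.292 for Zim1). Usp29, a ubiquitin-specific protease whose start lies beside that of Peg3, held at most 71 counts in any library and was called in no comparison.

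**Figure D2:**
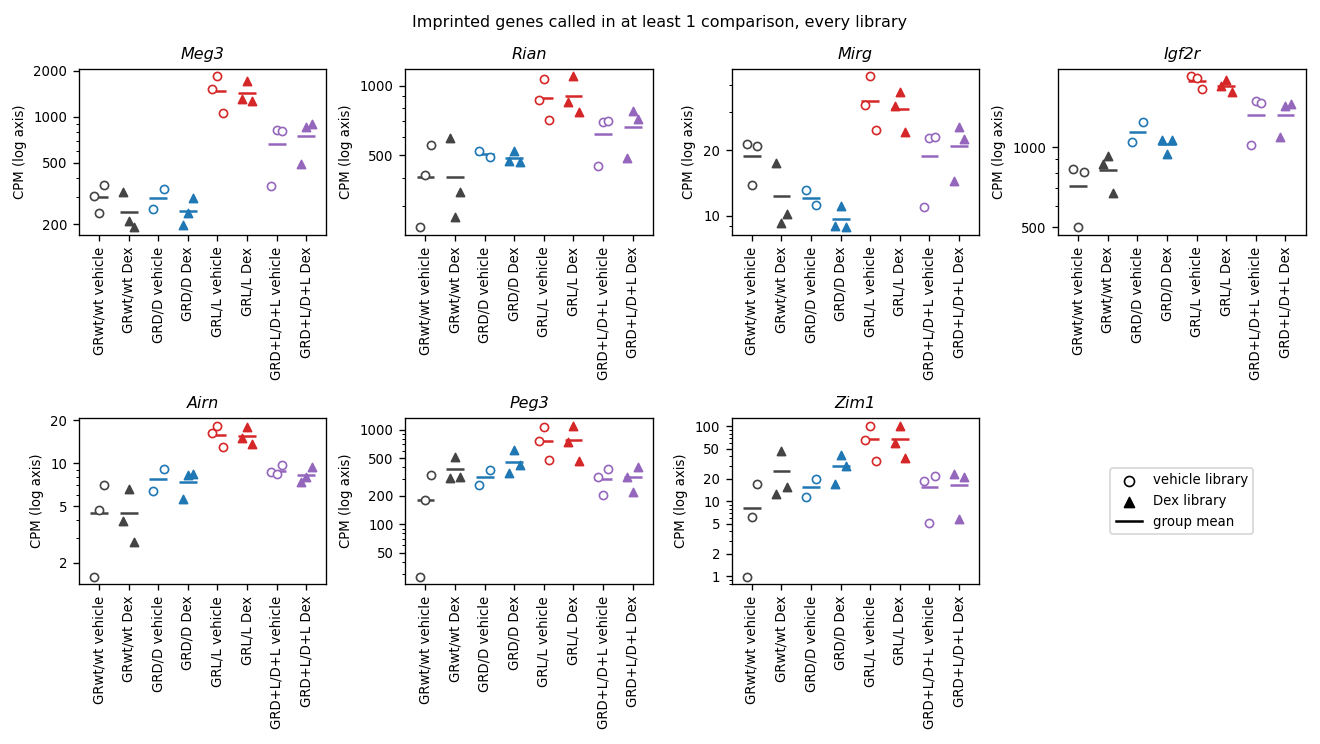
Level in CPM on a log axis of the 7 imprinted genes called in any comparison, with 1 point per library, grouped by genotype and treatment, and a line at the group mean. Meg3, Igf2r and Airn of GRL/L lie above all GRwt/wt libraries in vehicle and in Dex, whereas Peg3 and Zim1 of GRwt/wt are lowest in vehicle replicate 1.

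In all, 6 of 37 imprinted genes were called in GRL/L against GRwt/wt in vehicle, each of them higher, or 16.2%, where 7.78% of all genes tested were called and 4.93% were called higher. By adjusted p alone 9 passed, where 23% of all genes did. The additional ones were lower, namely Commd1, which acts in copper metabolism (LFC -0.84, adjusted p = 0.00366), H13, a signal peptide peptidase (LFC -0.69, adjusted p = 0.0278) and Gnas (LFC -0.66, adjusted p = 0.00902). Each was highest of all libraries in GRwt/wt vehicle replicate 1, which stood apart, at 25.6, 404 and 2678 CPM. Their LFC is not given without that library. The median LFC of the members was 0.70, against -0.05 over all genes, and 27 lay above 0. The groups did not overlap for 18 members, 15 of them higher in GRL/L, where 38% of all genes did not overlap. In Dex 5 of 37 were called, 13.5% against 2.59% of all genes (1.37% higher and 1.23% lower), all 5 of them higher, and the median LFC was 0.18 against -0.02. The groups did not overlap for 17 members, where 42.7% of all genes did not, and by adjusted p alone the same 5 passed, where 5.47% of all genes did. Among those that did not pass in vehicle were Kcnq1ot1 (LFC 1.39, adjusted p = 0.0747), Plagl1, a zinc finger transcription factor (LFC 1.34, adjusted p = 0.0660), and Igf2 (LFC 1.38, adjusted p = 0.417).

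Left out singly, 2 libraries moved the vehicle count by over 1.5 times. Without GRL/L vehicle replicate 2 it was 3 (Airn, Igf2r and Meg3), and without GRwt/wt vehicle replicate 3, the library with macrophage transcripts, it was 11. Without both GRwt/wt vehicle replicates 1 and 3 it was 6, with Rtl1 called and Rian, at an LFC of 1.08, not. Rian also lost its call when GRwt/wt vehicle replicate 1 alone was left out (LFC 0.87, adjusted p = 0.0417), while its LFC without replicate 3 was 1.47. Meg3, Igf2r and Airn were called each time, with an LFC of 2.30, 1.43 and 1.43 without replicate 1, 2.50, 1.46 and 2.36 without replicate 3 and 2.63, 1.81 and 1.73 without both. In Dex the count was 1 (Meg3) without GRwt/wt Dex replicate 3, 2 (Igf2r and Meg3) when GRL/L Dex replicate 2 was left out, and 3 (Airn, Igf2r and Meg3) when either replicate 1 of GRL/L Dex or replicate 2 of GRwt/wt Dex was. Meg3 passed under each of these. The share of all genes called in these fits is not given, so the counts do not single out imprinted genes. When the libraries of only these 2 genotypes were fitted, the LFC hardly moved but calls were lost. In vehicle Peg3 (adjusted p = 0.0749), Zim1 (adjusted p = 0.0511) and Rian (adjusted p = 0.0602) no longer passed, and in Dex Igf2r (adjusted p = 0.0512), Airn (adjusted p = 0.0984), Mirg (adjusted p = 0.0744) and Rian (adjusted p = 0.136) did not. The macrophage markers, summing to 300.4 to 744 CPM in GRL/L and to 99.0 or less in 5 of the 6 GRwt/wt libraries, moved with the genotype. Fibroblast markers did so too, at 60069 to 64971 CPM in GRL/L vehicle, against 40488 to 55209 in GRwt/wt, and at 57990 to 64964 CPM in Dex, against 43359 to 57652. Neural markers were lower in GRL/L Dex, at 78.6 to 139 CPM, against 159 to 272 in GRwt/wt, and overlapped in vehicle. The part of these markers in the differences was not tested.

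**Figure D3:**
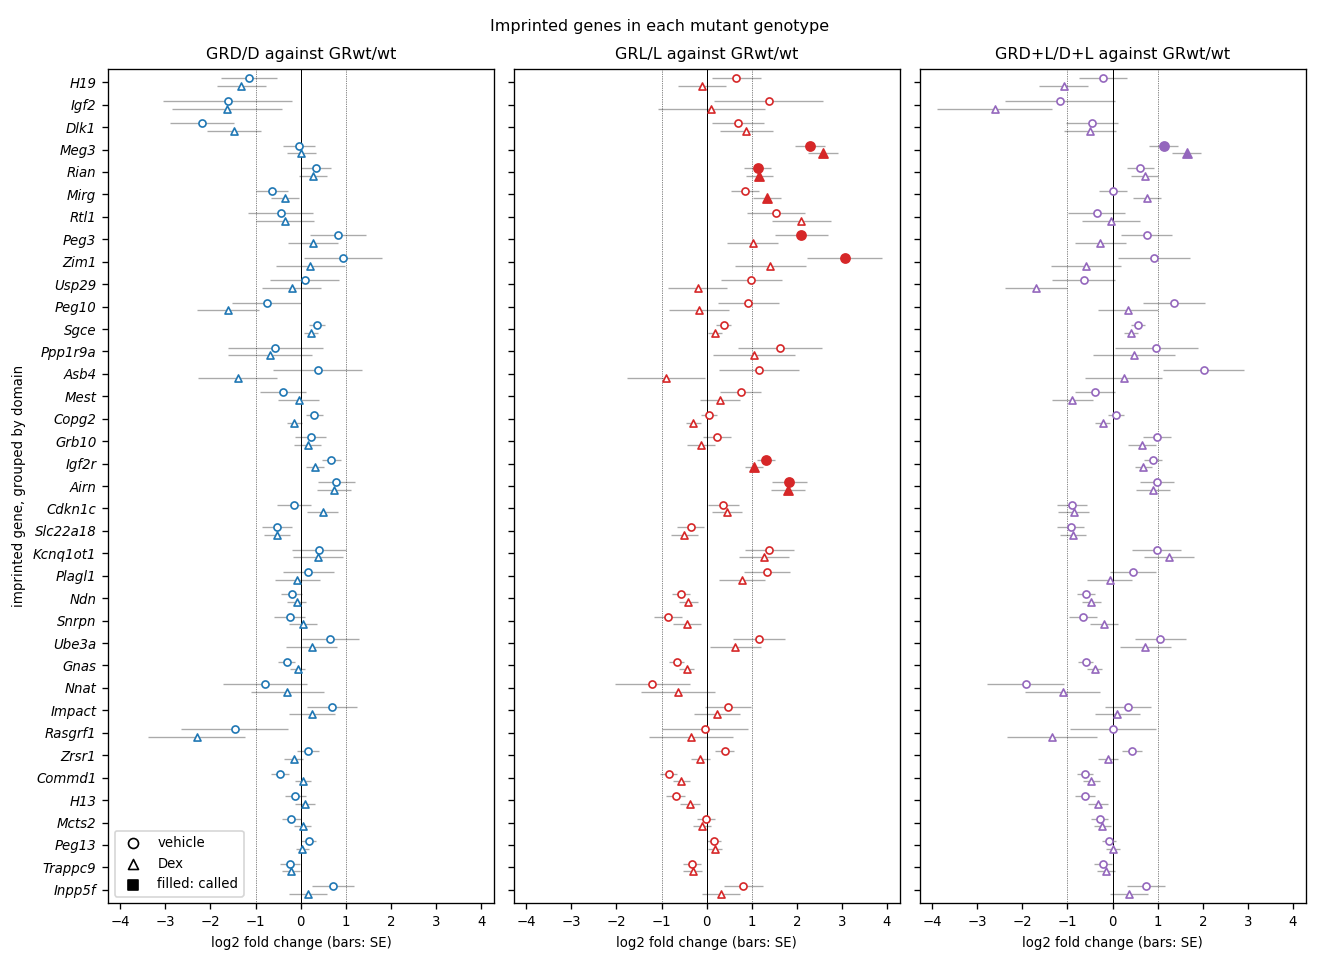
LFC with its SE of each tested imprinted gene in each mutant against GRwt/wt, in 1 panel per mutant, with circles for vehicle, triangles for Dex and filled marks for called genes. Of the filled marks, those of Zim1 and Meg3 in GRL/L reach the highest LFC, at 3.06 and 2.58, and no mark is filled in the GRD/D panel.

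In the double mutant GRD+L/D+L, Meg3 was the imprinted gene called against GRwt/wt in either treatment. The 3 mutants were each compared with the same GRwt/wt libraries, so their comparisons are not independent. In vehicle 1 of 37 was called (2.70%), where 8.32% of all genes were (3.62% higher and 4.71% lower). It was Meg3, at 352, 819 and 810 CPM against 305, 235 and 362 CPM in GRwt/wt (LFC 1.14, SE 0.32, adjusted p = 0.0211). The lowest GRD+L/D+L library lay within the GRwt/wt range. In Dex Meg3 was again the member called, 1 of 37, where 2.75% of all genes were called (0.876% higher and 1.87% lower), at 495, 854 and 901 CPM against 321, 209 and 190 CPM (LFC 1.64, SE 0.33, adjusted p = 0.00992), and there the groups did not overlap. GRL/L thus had 1478 ± 387 CPM of Meg3 in vehicle (SD, n = 3), GRD+L/D+L 660 ± 267 CPM (n = 3), GRwt/wt 300.5 ± 63.6 CPM (n = 3) and GRD/D 294 ± 61.4 CPM (n = 2). GRD+L/D+L was not tested against GRL/L.

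Further members passed by adjusted p alone in GRD+L/D+L vehicle, 8 in all including Meg3, where 20.4% of all genes did. Igf2r was higher, at 1016, 1495 and 1463 CPM (LFC 0.89, SE 0.19, adjusted p = 0.00477), and the groups did not overlap. The adaptor Grb10 was higher on average (LFC 0.98, SE 0.31, adjusted p = 0.0337), but its 3 cultures split, at 1135, 2597 and 2594 CPM, and the first lay within the GRwt/wt range of 951 to 1282 CPM. Sgce, epsilon-sarcoglycan, was also higher (LFC 0.57), while Slc22a18, a transporter (LFC -0.93), Commd1 (LFC -0.61), Gnas (LFC -0.59) and Ndn, a MAGE-family protein (LFC -0.59), were lower. Of all libraries, GRwt/wt vehicle replicate 1 held the most Commd1, Gnas and Ndn and the least Sgce. The LFC of these genes is not given without that library. In Dex Igf2r passed by adjusted p alone beside Meg3 (LFC 0.68, SE 0.19, adjusted p = 0.0487), where 4.89% of all genes did. The groups did not overlap for 7 members in vehicle and 12 in Dex, where 27.4% and 30% of all genes did not. The median LFC over the members was 0.01 in vehicle and -0.14 in Dex. Meg3 was no longer called in vehicle without GRD+L/D+L vehicle replicate 2 (LFC 0.95) or 3 (LFC 0.96) or GRwt/wt vehicle replicate 2 (LFC 0.97), nor in Dex without GRD+L/D+L Dex replicate 2 (adjusted p = 0.0519) or GRwt/wt Dex replicate 3 (adjusted p = 0.0638). It was called in neither treatment when the libraries of these 2 genotypes alone were fitted (LFC 1.18, adjusted p = 0.111 in vehicle and LFC 1.66, adjusted p = 0.130 in Dex). Without both GRwt/wt vehicle replicates 1 and 3, 3 members were called, Igf2r, Meg3 and Slc22a18, and without GRwt/wt vehicle replicate 3 alone 6 were. For these fits too the share of all genes is not given.

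In GRD/D 0 of 37 members were called against GRwt/wt, in vehicle (0.00635% of all genes, 0% higher) or in Dex (0.254%, with 0.0127% higher and 0.241% lower), by edgeR or by DESeq2. By adjusted p alone 0 passed as well, where 0.0127% and 0.305% of all genes did. The groups did not overlap for 7 members in vehicle and 6 in Dex, where 23.2% and 23.8% of all genes did not. At an unadjusted p under 0.05 there were 3 in vehicle, Dlk1, Igf2r and Commd1, and 4 in Dex, Dlk1, H19, Peg10 and Rasgrf1, or 8.11% and 10.8% of the members, where 12.4% and 11.1% of all genes passed this threshold. Dlk1 measured 85.3 and 65.0 CPM in GRD/D vehicle and 75.2, 199 and 61.4 CPM in GRD/D Dex (LFC -2.19, SE 0.71, adjusted p = 0.332 in vehicle). The vehicle value lay below all GRwt/wt libraries, which held 124 to 718 CPM, but the spread among the latter was as wide as the difference. Without GRwt/wt vehicle replicate 3 Dlk1 was called, and without both replicates 1 and 3 Igf2r was. Meg3 measured 250.2 and 337 CPM in GRD/D vehicle and 196, 236 and 295 CPM in GRD/D Dex, within the range of GRwt/wt under the same treatment (LFC 0.01, SE 0.32, adjusted p = 0.997 in Dex).

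The other members called in GRL/L are given here for the remaining groups. Rian measured 520.1 and 492 CPM in GRD/D vehicle and 471, 522 and 467 CPM in GRD/D Dex, within the GRwt/wt range, and 448, 695 and 704 CPM in GRD+L/D+L vehicle. In Dex it held 592, 270.1 and 347 CPM in GRwt/wt, 848, 1096 and 771 CPM in GRL/L and 486, 777 and 719 CPM in GRD+L/D+L. Mirg stood at 13.1 and 11.2 CPM in GRD/D vehicle, 8.98, 11.1 and 8.85 CPM in GRD/D Dex, 11, 22.7 and 23 CPM in GRD+L/D+L vehicle and 14.5, 25.6 and 22.6 CPM in GRD+L/D+L Dex. Culture 1 of GRD+L/D+L was thus the lowest for Meg3, Rian and Mirg alike, in both treatments. For Igf2r the Dex libraries gave 864, 929 and 674 CPM in GRwt/wt, 1065, 946 and 1065 CPM in GRD/D, 1701, 1793 and 1617 CPM in GRL/L and 1088, 1424 and 1448 CPM in GRD+L/D+L, and GRD/D vehicle gave 1045 and 1240 CPM. The group means of Airn followed the same order in Dex, at 3.94, 6.61 and 2.81 CPM in GRwt/wt, 5.60, 8.22 and 8.47 CPM in GRD/D, 7.34, 8.05 and 9.40 CPM in GRD+L/D+L and 15.1, 18.1 and 13.6 CPM in GRL/L. In vehicle it stood at 6.4 and 9.05 CPM in GRD/D and 8.65, 8.37 and 9.66 CPM in GRD+L/D+L. For both genes, in vehicle and in Dex, every GRL/L library lay above every library of the other genotypes, and the test was made against GRwt/wt alone. Peg3 ranged from 206 to 408 CPM in GRD+L/D+L and from 261 to 613 CPM in GRD/D, while GRL/L Dex held 746, 1108 and 469 CPM, the last of these below the highest GRwt/wt Dex library. Zim1 ranged from 11.3 to 41.1 CPM in GRD/D.

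Dex itself left the imprinted genes without a call. In each of the 4 genotypes 0 of 37 members were called, by edgeR or by DESeq2, where 0.159% of all genes tested were called in GRwt/wt and 0% in the mutants. At an unadjusted p under 0.05 there was 1 member in GRwt/wt, the retrogene Zrsr1 (LFC 0.57, SE 0.22, adjusted p = 0.220), where 15.6% of all genes passed this threshold. There were 0 in any mutant, where 0.978% of all genes did in GRD/D, 0.343% in GRD+L/D+L and 0.273% in GRL/L. By adjusted p alone 0 members passed, where 0.222% of all genes did in GRwt/wt and 0% in the mutants. The groups did not overlap for 2 members in GRwt/wt (9.46% of all genes), 7 in GRD/D (21.3%), 1 in GRD+L/D+L (3.37%) and 1 in GRL/L (4.84%). Within GRL/L, 36 of 37 members had an absolute LFC under 0.2, and within GRD+L/D+L 35 had. In GRwt/wt 10 and in GRD/D 19 did. The median absolute LFC of the members was 0.34 in GRwt/wt, 0.18 in GRD/D, 0.085 in GRD+L/D+L and 0.034 in GRL/L, beside 0.31, 0.12, 0.076 and 0.058 over all genes. The highest in GRwt/wt belonged to Asb4, a subunit of a ubiquitin ligase (LFC 1.81, SE 0.89, adjusted p = 0.341), at 0.496, 1.56 and 1.81 CPM in vehicle and 5.21, 5.15 and 3.25 CPM in Dex. The response of each mutant was also tested against that of GRwt/wt, and 0 members differed in GRD/D (0% of all genes), in GRD+L/D+L (0.0254%) or in GRL/L (0.0254%), with a smallest adjusted p of 0.755, 0.977 and 0.816.

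Among cultures of a single genotype, in contrast, several imprinted genes differed by large factors. The SD of log2 CPM within groups, pooled over the 8 groups, was 1.70 for Igf2, 1.19 for Ppp1r9a, 1.11 for Zim1, 1.10 for Asb4 and for Nnat, 1.03 for Rasgrf1, 0.92 for Ube3a and 0.88 for Peg10. At the other end were Peg13 (0.18), Sgce (0.19), Gnas (0.19), Mcts2 (0.19) and Copg2 (0.21). The median over the 37 members was 0.49, against 0.39 over all genes, and 6 of 37 lay above 0.94, the limit of the upper 10% of all genes, but with a prior count of 0.5 in place of 2 it was 4 of 37 (10.8%), near the share of all genes. Of the 37 members, 13 lay below the median of all genes, and the lowest, Peg13, stood at the 17th percentile. Without GRwt/wt vehicle replicates 1 and 3 the medians were 0.39 and 0.25, and Ube3a, an E3 ubiquitin ligase, fell to 0.30, since its 5.85 CPM in GRwt/wt vehicle replicate 1 stood against 92.2 and 119 in the others of that group. Impact, a translation regulator, and the inositol phosphatase Inpp5f were likewise lowest in that library and went from 0.80 to 0.20 and from 0.65 to 0.11, while Trappc9, a trafficking subunit, went from 0.25 to 0.16. In the mutants Ube3a kept to 111 to 183 CPM.

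Vehicle and Dex libraries of the same number were alike in GRD+L/D+L and in GRL/L. Over all genes, each vehicle library of these genotypes deviated from its group mean most like the Dex library of its own number, with a correlation of 0.652 to 0.887 in GRD+L/D+L and 0.322 to 0.644 in GRL/L. In GRwt/wt and GRD/D this held for vehicle replicate 1 but not for the others. Correlations within a number ran from -0.199 to 0.548, so that there a number cannot be taken to mark a culture. GRD/D vehicle replicate 2 was most like Dex replicate 3 (correlation 0.452). In the genotypes where numbers matched, the SD between the cultures had a median of 0.33 over the members, against 0.20 over all genes. The difference between the Dex and vehicle library of a culture had a median of 0.080 on the log2 scale over the members and 0.107 over all genes.

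Igf2, the most variable, measured 13.6, 0.823 and 0.412 CPM in GRD+L/D+L vehicle and 12.8, 0.0575 and 0.631 CPM in GRD+L/D+L Dex, the lowest from a single count. Culture 1 of this genotype thus held nearly all of its Igf2 in both treatments. H19, its maternally expressed neighbour, was also highest in culture 1, at 4200, 1243 and 1761 CPM in vehicle and 3926, 1046 and 1657 CPM in Dex. In GRL/L Igf2 was highest in culture 3, at 21.6, 20.4 and 44.2 CPM in vehicle and 22.7, 19.6 and 47.2 CPM in Dex. That culture was also the highest of GRL/L in cartilage markers, at 46.3 and 52.2 CPM in vehicle and Dex, and in endothelial markers, at 13.3 and 12.4 CPM. It was the lowest in macrophage markers, at 312 and 300.4 CPM, and the part of these was not tested. The GRwt/wt Dex libraries held 7.88, 55.4 and 19.8 CPM of Igf2, and the GRwt/wt vehicle libraries 9.76, 11.7 and 11.7 CPM. In GRD/D it was 3.25 and 3.93 CPM in vehicle and 3.20, 20.2 and 3.31 CPM in Dex. No vehicle library of these genotypes came near the Dex libraries number 2. GRD/D vehicle held only 2 libraries, which over all genes were most like Dex replicates 1 and 3, and may lack that culture.

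In the Peg10-Sgce cluster on chromosome 6, 3 of the 4 members were likewise highest in culture 1 of GRD+L/D+L. Peg10, a retrotransposon-derived gene needed in placenta, measured 283, 94.0 and 58.6 CPM in vehicle and 288, 92.7 and 55.6 CPM in Dex. Ppp1r9a, which encodes neurabin, measured 9.90, 0.503 and 1.47 CPM in vehicle and 10.9, 0.920 and 1.49 CPM in Dex. Asb4 followed with 11, 3.11 and 1.65 CPM in vehicle and 10.4, 3.56 and 2.18 CPM in Dex. Sgce went the other way, with culture 1 lowest, at 53.4, 77.9 and 68.8 CPM in vehicle and 57.5, 79.2 and 71.1 CPM in Dex. Culture 1 was the culture with 245 and 296 CPM of cartilage markers. Neural markers set it apart as well, at 234 and 267 CPM, against 36.8 to 67.9 in the other GRD+L/D+L libraries. Within this genotype it was also highest in macrophage markers, at 81.9 and 78.3 CPM in vehicle and Dex. It was lowest in endothelial markers, at 3.42 and 3.86 CPM, and in fibroblast markers, at 45592 and 51000 CPM. The part of any of these was not tested. Grb10, outside this cluster, also had culture 1 lowest in both treatments, at 1122, 2658 and 2659 CPM in Dex. In GRL/L the order was another, Asb4 being highest in culture 3, at 1.33, 0.915 and 6.41 CPM in vehicle, and Peg10 in culture 2, at 80, 130.3 and 109 CPM. The GRwt/wt libraries held 110, 39.8 and 19.5 CPM of Peg10 in vehicle and 217, 64.1 and 62.9 CPM in Dex, and GRD/D 28.5 to 40.5 CPM. Ppp1r9a ranged from 0.386 to 4.50 CPM in GRwt/wt, from 1.08 to 2.71 CPM in GRD/D and from 3.99 to 8.88 CPM in GRL/L. Asb4 lay between 1.29 and 2.27 CPM in GRD/D, and in GRL/L Dex it held 1.5, 0.443 and 5.32 CPM, with culture 3 again the highest.

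Of the other variable genes, Nnat, a membrane proteolipid, owed its spread to GRwt/wt, at 50.6, 7.52 and 2.22 CPM in vehicle and 30, 2.58 and 5.43 CPM in Dex, against 4.89 to 13.7 CPM in the mutants. The GRwt/wt libraries number 1 also held the highest skeletal muscle marker sums, at 267 CPM in vehicle, the library that stood apart, and 173 CPM in Dex. The part of this in the spread was not tested. Zim1 measured 19, 5.17 and 21.8 CPM in GRD+L/D+L vehicle and 23.4, 5.75 and 20.9 CPM in Dex, so that culture 2 was low in both. Its GRL/L cultures kept the order of 65.3, 102 and 34.9 CPM in Dex, at 60.9, 103 and 38.0 CPM. Rasgrf1, a guanine nucleotide exchange factor, ranged from 0 to 1.16 CPM, close to the limit of detection.

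**Figure D4:**
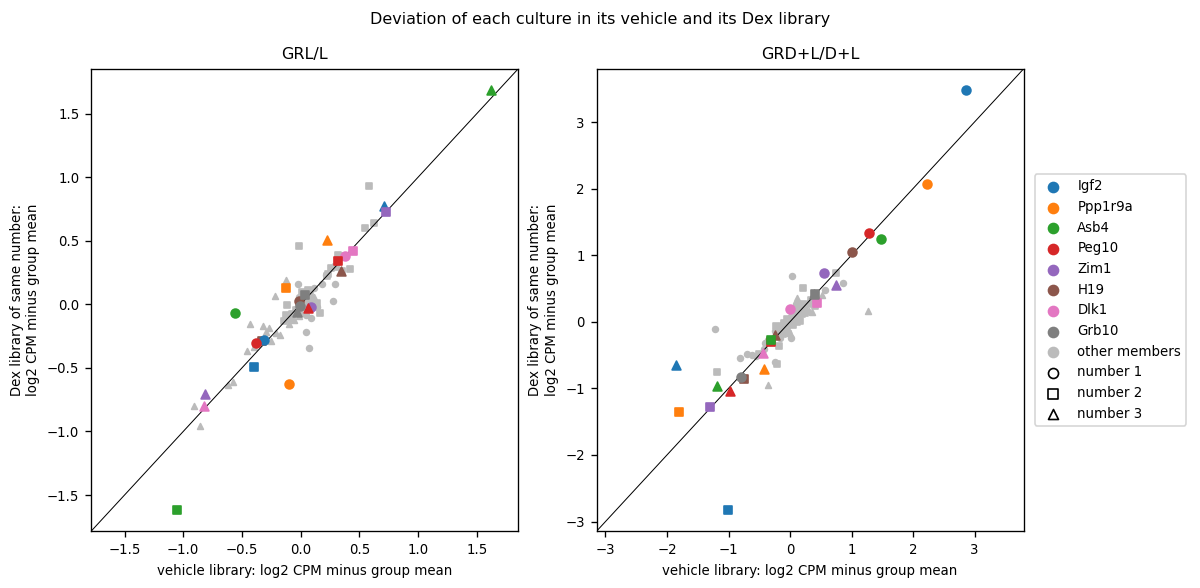
Deviation of log2 CPM from the group mean in vehicle (x axis) against Dex (y axis) for each numbered culture of GRD+L/D+L and GRL/L, with 8 genes in colour. Points follow the diagonal in both panels, and Igf2 and Ppp1r9a of GRD+L/D+L culture 1 lie at its upper end.

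Whether neighbours in a cluster varied together was examined for 6 pairs over the 12 Dex libraries, 1 per culture, with two-sided permutation tests adjusted over the 6 pairs. H19 and Igf2 rose and fell together (Pearson r = 0.870, adjusted permutation p = 0.00014, Spearman rho = 0.895, adjusted permutation p = 0.0004). So did Meg3 and Rian (r = 0.893, adjusted permutation p = 0.00014, rho = 0.902, adjusted permutation p = 0.00027) and Igf2r and Airn (r = 0.922, adjusted permutation p = 0.00012, rho = 0.909, adjusted permutation p = 0.00027). The raw p of r were 7e-05, 7e-05 and 2e-05. Without the 2 libraries farthest from the median of the first gene, r was 0.833, 0.827 and 0.846. As genotypes differed in some of these genes, r was also taken over differences from the genotype mean. It was then 0.904 for H19 and Igf2, 0.803 for Meg3 and Rian and 0.637 for Igf2r and Airn. Igf2r and Airn are active on opposite parental copies, as are H19 and Igf2, whereas Meg3 and Rian share the maternal copy. If counting ignored strand, reads from Igf2r introns could be counted for Airn. Of the Igf2 exon bases, 64.5% are shared with another annotated gene. The part of either in these correlations was not tested.

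Peg3 and Usp29, which share a bidirectional promoter region, correlated at r = 0.676 (raw permutation p = 0.0154, adjusted p = 0.0231), but by rank did not pass (rho = 0.594, adjusted permutation p = 0.0643). Without the 2 libraries farthest from the median of Peg3, which narrows its range, r was 0.393. Over differences from the genotype mean it was 0.860 (adjusted permutation p = 0.00165), and without any single library 0.547 to 0.783. Dlk1 and Meg3 did not pass (r = 0.595, raw permutation p = 0.0448, adjusted p = 0.0537, rho = 0.580, adjusted p = 0.0643), with 0.506 without the 2 farthest libraries and 0.183 within genotypes. In the vehicle libraries other than GRwt/wt vehicle replicate 1, however, this pair passed (r = 0.831, adjusted permutation p = 0.00614). Peg10 and Sgce, both paternally expressed, did not pass either (r = -0.247, raw permutation p = 0.441, rho = -0.364, adjusted p = 0.247), with 0.0878 without the 2 farthest libraries and -0.576 within genotypes (adjusted permutation p = 0.0607).

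**Figure D5:**
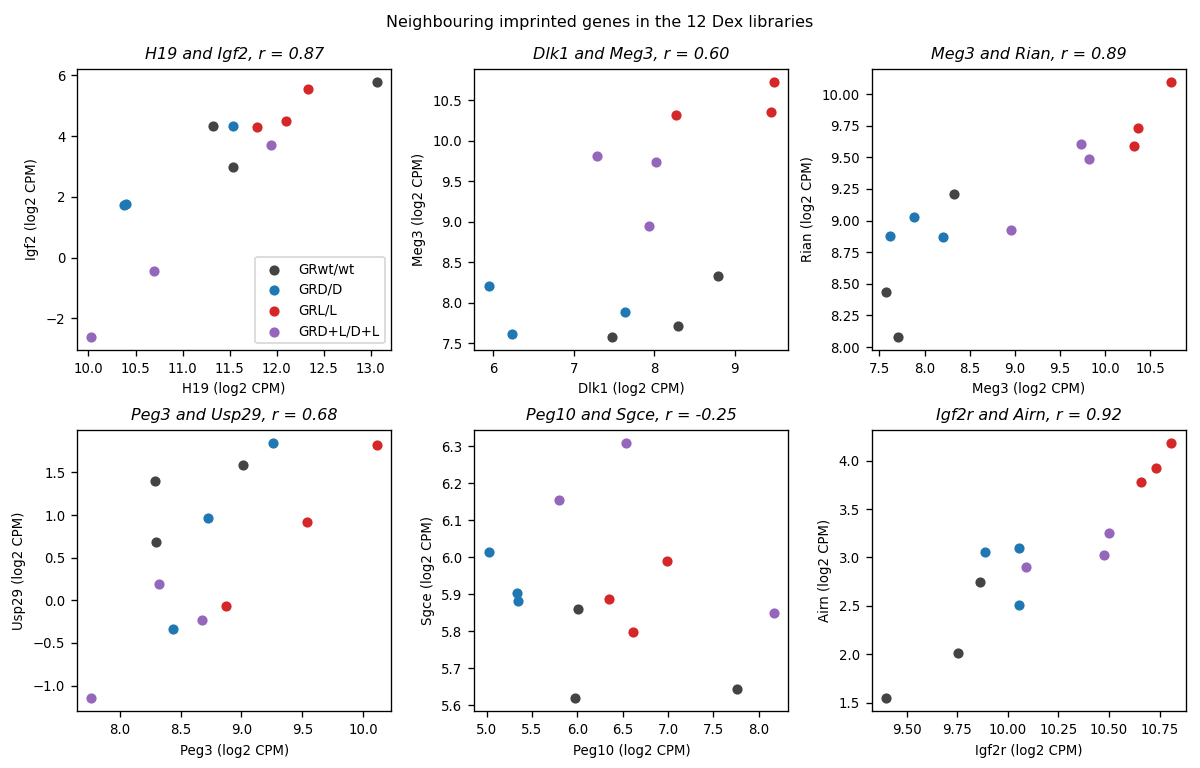
Log2 CPM of 6 pairs of neighbouring imprinted genes in the 12 Dex libraries, coloured by genotype, 1 point per library. H19 with Igf2, Meg3 with Rian and Igf2r with Airn follow a line (r = 0.870, 0.893 and 0.922), whereas Peg10 and Sgce do not (r = -0.247).

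Lists of related genes were set beside the members. Of 42 other imprinted genes, 30 were tested. Over all 15748 genes, 1225 were called in GRL/L vehicle, 408 in GRL/L Dex, 1311 in GRD+L/D+L vehicle and 40 in GRD/D Dex. In GRL/L vehicle 3 of these were higher and 0 lower, beside 4.93% and 2.84% of all genes. They were Begain, the neighbour of Dlk1 on chromosome 12 (LFC 1.83, SE 0.37, adjusted p = 0.00237), Mkrn3 (LFC 1.44, adjusted p = 0.0401) and Jade1 (LFC 1.21, adjusted p = 0.0283), and in Dex Begain was called again (LFC 1.92, SE 0.37, adjusted p = 0.00686). Jade1 was higher in GRD+L/D+L vehicle (LFC 1.34, adjusted p = 0.0211) and Gatm, which acts in creatine synthesis, lower (LFC -4.72, adjusted p = 0.0173), from a GRwt/wt range of 0.883 to 46.7 CPM. In GRD/D Dex Atp10a was lower (LFC -1.07, adjusted p = 0.0441). Of 22 factors that set, keep or erase imprints, 21 were tested, and in GRL/L vehicle Zfp57, the imprint-keeping factor named above (LFC 1.14, SE 0.23, adjusted p = 0.00260), and Tet3, an enzyme that oxidises methylated cytosine (LFC 1.02, SE 0.18, adjusted p = 0.00118), were higher and 0 lower. These were 2 of 21 called higher, beside 4.93% of all genes. Zfp57 stood at 51.4 ± 11.2 CPM in GRL/L vehicle, against 23.3 ± 4.85 CPM for GRwt/wt (SD, n = 3 each), and was called in Dex too (LFC 1.24, adjusted p = 0.00611), as 1 of 21. Tet3 was also called in GRD+L/D+L vehicle (LFC 1.18, adjusted p = 0.000733), again as 1 of 21. The median LFC of the list against GRwt/wt in vehicle was 0.83 for GRL/L, 0.63 for GRD+L/D+L and 0.36 for GRD/D, beside -0.05, -0.05 and -0.06 over all genes. In Dex it was 0.57, 0.46 and 0.01, beside -0.02, -0.03 and -0.0046, and for Dex against vehicle in GRwt/wt it was 0.28, beside -0.0093. The vehicle comparisons share the GRwt/wt vehicle libraries, and values of the listed genes are not given without replicates 1 and 3 of these. Of 24 partners of the imprinted growth genes, all tested, Igfbp5, an IGF-binding protein, was higher in GRL/L vehicle, at 3244 ± 352 CPM against 922 ± 205 CPM in GRwt/wt vehicle (LFC 1.81, adjusted p = 0.00424). The NOTCH target Hes1 was lower in GRD+L/D+L vehicle (LFC -1.01, adjusted p = 0.0195). Each was 1 of 24, near the share of all genes called in that direction, which was 4.93% higher in GRL/L vehicle.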

How the data were processed

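Unnormalized read counts by Ensembl gene make up the single deposited table. Per the study's methods and the submitters' processing notes, the authors sequenced TruSeq libraries of total RNA on a NovaSeq, mapped reads to mm10 (GRCm38) with HISAT2 2.1.0, kept uniquely mapped reads and counted them with featureCounts 2.0.0. The annotation release and strandedness are not given in the sources used here, so counts of overlapping genes are uncertain. Symbols and 1-based coordinates came from GENCODE M21, which holds 55227 of the 55487 identifiers, and sequences from RefSeq (GRCm38.p6).

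Counts were fitted in R 4.3.3 with edgeR 4.0.16 (quasi-likelihood test, TMM scaling, filterByExpr, all 23 libraries, 1 mean per group). A call needed p at most 0.05 after Benjamini-Hochberg adjustment over all 15748 genes and an absolute LFC of at least 1. Adjusted p-values without another name are from this fit. The SE is the absolute LFC over the root of F. The code was tested on simulated data. DESeq2 1.42.0 was an alternative, as were RLE and upper-quartile scaling, other filters, replicate blocks and leaving out libraries. Spread and correlations used log2 CPM with a prior count of 2.

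The members and gene lists were chosen with earlier results of these data known. By the naming rule, members called in any comparison and the 8 with the highest pooled SD are given per library or, for some groups, as a range. Other members given per library were chosen after their values were seen. List genes are named where called.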

Additional observations from a re-analysis of the deposited data

How the results depend on the processing

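Of 111 recomputed counts of imprinted genes called, other than those leaving out a single library, 96 stayed within 1.5 times the reported count. Most of the 96 were counts of 0 that stayed at 0, so they say little about comparisons with a call. Fitting only the genotypes compared gave 3 in GRL/L vehicle, 1 in GRL/L Dex and 0 in GRD+L/D+L in vehicle and in Dex. The count in GRD+L/D+L vehicle, reported as 1, was 8 by adjusted p alone, 2 with RLE scaling, with upper-quartile scaling, with no filter, with at least 10 counts in every library or with the replicate block, and 3 with DESeq2 or without both GRwt/wt vehicle replicates 1 and 3. Upper-quartile scaling called Cdkn1c and Slc22a18 there, both lower, and not Meg3 (LFC 0.99), and moved the median LFC of all genes in vehicle from -0.048 to -0.193 for GRD+L/D+L and from -0.048 to -0.170 for GRL/L. By adjusted p alone 2 members passed in GRD+L/D+L Dex. Without both GRwt/wt vehicle libraries 1 and 3, 1 member was called in GRD/D vehicle.

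The culture block gave 1 call for Dex in GRwt/wt (Peg10), where numbers do not pair all libraries, and changed no call for Dex in the other genotypes. With the replicate block, GRL/L vehicle had 8 calls and GRL/L Dex 6, with Rtl1 added (LFC 2.25, adjusted p = 0.0211). Numbers are shared between genotypes without marking a common source.

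Leaving out each library in turn gave 3 to 11 calls in GRL/L vehicle, 1 to 7 in GRL/L Dex, 0 to 6 in GRD+L/D+L vehicle, 0 to 2 in GRD+L/D+L Dex, 0 to 1 in GRD/D vehicle and 0 elsewhere. Shares of all genes are not given beside the counts of this section. Meg3, Igf2r and Airn in GRL/L vehicle were called in all 33 alternatives and Meg3 in GRL/L Dex in all 31. For the correlations the ranges were 0.853 to 0.889 for H19 and Igf2, 0.860 to 0.921 for Meg3 and Rian, 0.883 to 0.950 for Igf2r and Airn, 0.547 to 0.783 for Peg3 and Usp29, 0.484 to 0.672 for Dlk1 and Meg3 and -0.385 to -0.0545 for Peg10 and Sgce. In the vehicle libraries r was 0.575 for Peg3 and Usp29 and 0.00662 for Peg10 and Sgce, and without GRwt/wt vehicle replicate 1 it was 0.247 for the latter, 0.653 for Peg3 and Usp29 and 0.831 for Dlk1 and Meg3, and these last pairs then passed. The causes of these changes were not tested. With 2 or 3 cultures per genotype, differences between embryos of a genotype weigh on every comparison with GRwt/wt.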
